A study of Homo sapiens with 6 samples.

Results

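ATAC-seq, in which the transposase Tn5 inserts adapters into accessible DNA, was used here to ask which protein-coding promoters lay outside every region of open chromatin in HLF cells. A promoter was called closed when no region called in any of the 6 libraries touched the DNA within 1 kb of any annotated transcript start of the gene. Of 19111 autosomal protein-coding genes, 3504 (18.3%) met that rule. The members were chosen by the presence or absence of called regions at their starts in these 6 libraries, so that count is a description without a test, and closed means here only that no region was called at the depth of these libraries.

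HLF is an established human line from a liver tumour, and all groups are this 1 line. 3 libraries came from cells given DMSO, the solvent, and 3 from cells given 5 µM SNDX-5613 (revumenib), which blocks the binding of menin to the histone methyltransferase MLL1. The labels give 24 h of treatment and batch 1 for all libraries, while the study's methods give a course of several days, so the duration is uncertain. The libraries held between 40568 and 113675 called regions, and SNDX-5613 replicate 3 stood apart with the 40568, less than any other library (the next held 88026).

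A promoter is the DNA around a transcription start, where general factors and RNA polymerase II assemble. In most cells promoters with many CpG dinucleotides, called CpG islands, lie in open chromatin whether or not the gene is used much, because factors that recognise CpG-rich DNA keep nucleosomes away. Promoters poor in CpG usually belong to genes of specialised cells and open only where the right activators are present.

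The upstream DNA of a few promoters shows the contrast on which the sequence results turn. The first 3 belong to closed promoters of a liver-secreted protein, an antiviral cytokine and a skin barrier protein, the next 2 to closed promoters rich in CpG, and the last to a broadly used gene, CHMP2A (a component of the ESCRT-III membrane machinery), whose promoter held a region in all 6 libraries. Each is the 150 bases before the canonical start in hg38, 5′ to 3′ on the strand of the gene, with every CpG dinucleotide in capitals and no annotated exon inside.
AHSG, chr3:186612910-186613059, plus strand: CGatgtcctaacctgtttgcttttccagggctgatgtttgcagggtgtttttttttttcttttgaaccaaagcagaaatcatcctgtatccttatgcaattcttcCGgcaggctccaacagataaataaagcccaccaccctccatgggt
IFNB1, chr9:21077943-21078092, minus strand: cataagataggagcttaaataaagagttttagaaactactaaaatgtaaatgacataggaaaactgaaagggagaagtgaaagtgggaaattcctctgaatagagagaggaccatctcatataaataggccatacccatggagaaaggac
LCE3A, chr1:152623104-152623253, minus strand: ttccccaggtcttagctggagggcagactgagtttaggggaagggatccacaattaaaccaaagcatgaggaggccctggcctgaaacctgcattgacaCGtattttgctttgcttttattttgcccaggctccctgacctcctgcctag
NKX6-2, chr10:132786148-132786297, minus strand: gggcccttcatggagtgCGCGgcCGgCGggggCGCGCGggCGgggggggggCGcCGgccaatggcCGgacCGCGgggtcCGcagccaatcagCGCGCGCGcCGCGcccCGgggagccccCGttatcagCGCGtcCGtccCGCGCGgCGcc
HOXA9, chr7:27165538-27165687, minus strand: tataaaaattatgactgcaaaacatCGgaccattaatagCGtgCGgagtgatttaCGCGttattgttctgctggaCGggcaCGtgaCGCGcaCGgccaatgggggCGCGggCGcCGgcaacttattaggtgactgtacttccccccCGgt
CHMP2A, chr19:58555106-58555255, minus strand: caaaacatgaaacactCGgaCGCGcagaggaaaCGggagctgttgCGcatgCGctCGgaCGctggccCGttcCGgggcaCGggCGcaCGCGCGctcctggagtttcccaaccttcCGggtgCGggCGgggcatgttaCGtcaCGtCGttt
The AHSG, IFNB1 and LCE3A stretches hold 2, 0 and 1 CpG, and the NKX6-2, HOXA9 and CHMP2A stretches hold 29, 15 and 21. AHSG and HOXA9 had a region 1864 and 1485 bp from a start, so they were closed with 1 kb each side but not with 2 kb.

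Among the fixed families, olfactory receptor genes held the most closed promoters. 383 of 412 olfactory receptor genes (93.0%), the odorant receptors of the nose, were closed, against 18.3% of all genes; OR10A2, OR2L8, OR56A4 and OR9Q2 are examples. Only 4 olfactory receptor genes had a promoter region in all 6 libraries. 23 of 24 bitter taste receptor genes were closed, and TAS2R14, the exception, was open in all 6 libraries. All 4 autosomal vomeronasal type 1 receptor genes, which relate to pheromone receptors of other mammals, were closed, as were 5 of 6 trace amine receptor genes, all but TAAR9.

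Most genes of the skin barrier and hair families were closed, against 18.3% of all genes. All 30 late cornified envelope and SPRR genes, which encode cross-linked proteins of the outermost skin layer, had no promoter region in any library. Keratin-associated proteins, the matrix of the hair shaft, were closed in 67 of 94 cases, and keratins, the filaments of epithelia and hair, in 38 of 55. On a list of 25 epidermal genes 17 were closed, among them FLG and LORICRIN, major proteins of the cornified layer, and KRT5, a basal-layer keratin.

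Innate defence and blood-cell genes made up a further group. 34 of 40 beta-defensin and 6 of 6 alpha-defensin genes, which encode antimicrobial peptides, were closed. Of 17 type I interferon genes, 16 were closed, and IFNW1 was the exception with a promoter region in 5 libraries. Of 29 lymphocyte genes 18 were closed, including CD3D, CD3E and CD3G of the T-cell receptor complex, CD79A of the B-cell receptor and PTPRC, the pan-leukocyte phosphatase CD45. 10 of 24 myeloid genes were closed, including SPI1, the master factor of myeloid cells. Erythroid genes were closed in 14 of 20 cases, including HBB (beta-globin) and KLF1 (an erythroid transcription factor). Chemokines (19 of 42), interleukins (23 of 48) and C-type lectins (24 of 42) were closed in 45.2%, 47.9% and 57.1% of their members. Of all genes 18.3% were closed, and of all promoters that were not CpG-rich, a class defined below, 44.4%. The myeloid (41.7%), chemokine and interleukin shares were near that 44.4%.

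Among the tissue lists the salivary and mammary one had the highest share, with 18 of 19 genes closed, including the caseins CSN1S1, CSN2 and CSN3 of milk, and PRH1, open in all 6 libraries, was the exception. Intestinal genes were closed in 13 of 21 cases, among them the enterocyte enzymes LCT and SI and the intestinal factors CDX1 and CDX2. Stomach genes were closed in 9 of 15 cases, pituitary and placental hormones in 13 of 23, and pancreatic acinar genes in 10 of 20. Over all genes the closed share was 18.3%, and over promoters that were not CpG-rich 44.4%, near the acinar share of 50%. On the islet list 6 of 20 were closed, including INS (insulin) and SST (somatostatin). By contrast 1 of 17 fibroblast and stromal genes was closed, POSTN, and 2 of 18 glial genes, MOG and SOX10.

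Hepatocyte genes were looked at because the labels give a liver tumour. 14 of 31 autosomal hepatocyte genes (45.2%) were closed, against 18.3% of all genes, 6 were open in all 6 libraries, a state that 65.1% of all genes had, and 11 were open in 1 to 5. The median ratio of observed to expected CpG of this list, within 500 bp of the canonical start, was 0.21. Of all promoters with a ratio of 0.2 to 0.3, 49.2% were closed. The hepatocyte share was thus near that of promoters alike in CpG. The closed genes included ALB (albumin), APOA1, APOA2 and APOC3 (apolipoproteins), FGA and FGB (fibrinogen chains), ARG1 (the last enzyme of the urea cycle), CYP3A4 (a drug-metabolising cytochrome P450), HNF4A (the central hepatocyte transcription factor) and NR1H4 (the bile acid receptor). FGA, APOA1, FGB, AHSG, APOA2 and AMBP had a region 1108 to 1909 bp from a start, so they were not closed with 2 kb each side. ALB, APOC3, ARG1, CYP3A4, HNF4A, HP, NR1H4 and TAT stayed closed with 2 kb. The promoters open in all 6 libraries were those of CPS1, CYP2E1, HPX, TTPA, ASGR1 and FOXA1. Of the liver detoxification families, 27 of 56 cytochrome P450 genes (48.2%) and 16 of 19 UDP-glucuronosyltransferase genes (84.2%) were closed. Their median CpG ratios were 0.213 and 0.237, so the P450 share too was near that 49.2%. The 3 open glucuronosyltransferase genes were UGT1A8, UGT2A3 and UGT2B7.

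Genes of contractile and nerve cells varied. 6 of 10 heavy chains of striated-muscle myosin were closed (MYH1, MYH15, MYH6 and MYH8 among them), and 13 of 30 striated muscle genes in all, including MYOG and ACTA1. On the neuron list 6 of 30 were closed, near the 18.3% of all genes. Channel and receptor families of neurons ranged around that share, with 4 of 16 GABA-A receptor subunit genes (25%), 22 of 93 potassium channel genes (23.7%), 3 of 16 nicotinic receptor genes (18.8%), 1 of 14 sodium channel genes (SCN10A) and 2 of 19 ionotropic glutamate receptor genes (GRIA1 and GRIN2D).

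None of the 26 genes on the broadly expressed list, none of the 47 proteasome subunit genes and none of the 35 complex I subunit genes was closed. The closed member among the 81 genes of cytosolic ribosomal proteins was RPL3L, the muscle form of RPL3. Replication-dependent histone genes, used by dividing cells, were closed in 12 of 69 cases (17.4%), near the 18.3% of all genes. Genes named ZNF, which encode C2H2 zinc finger proteins, were closed in 27 of 496 cases (5.44%).

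**Figure D1:**
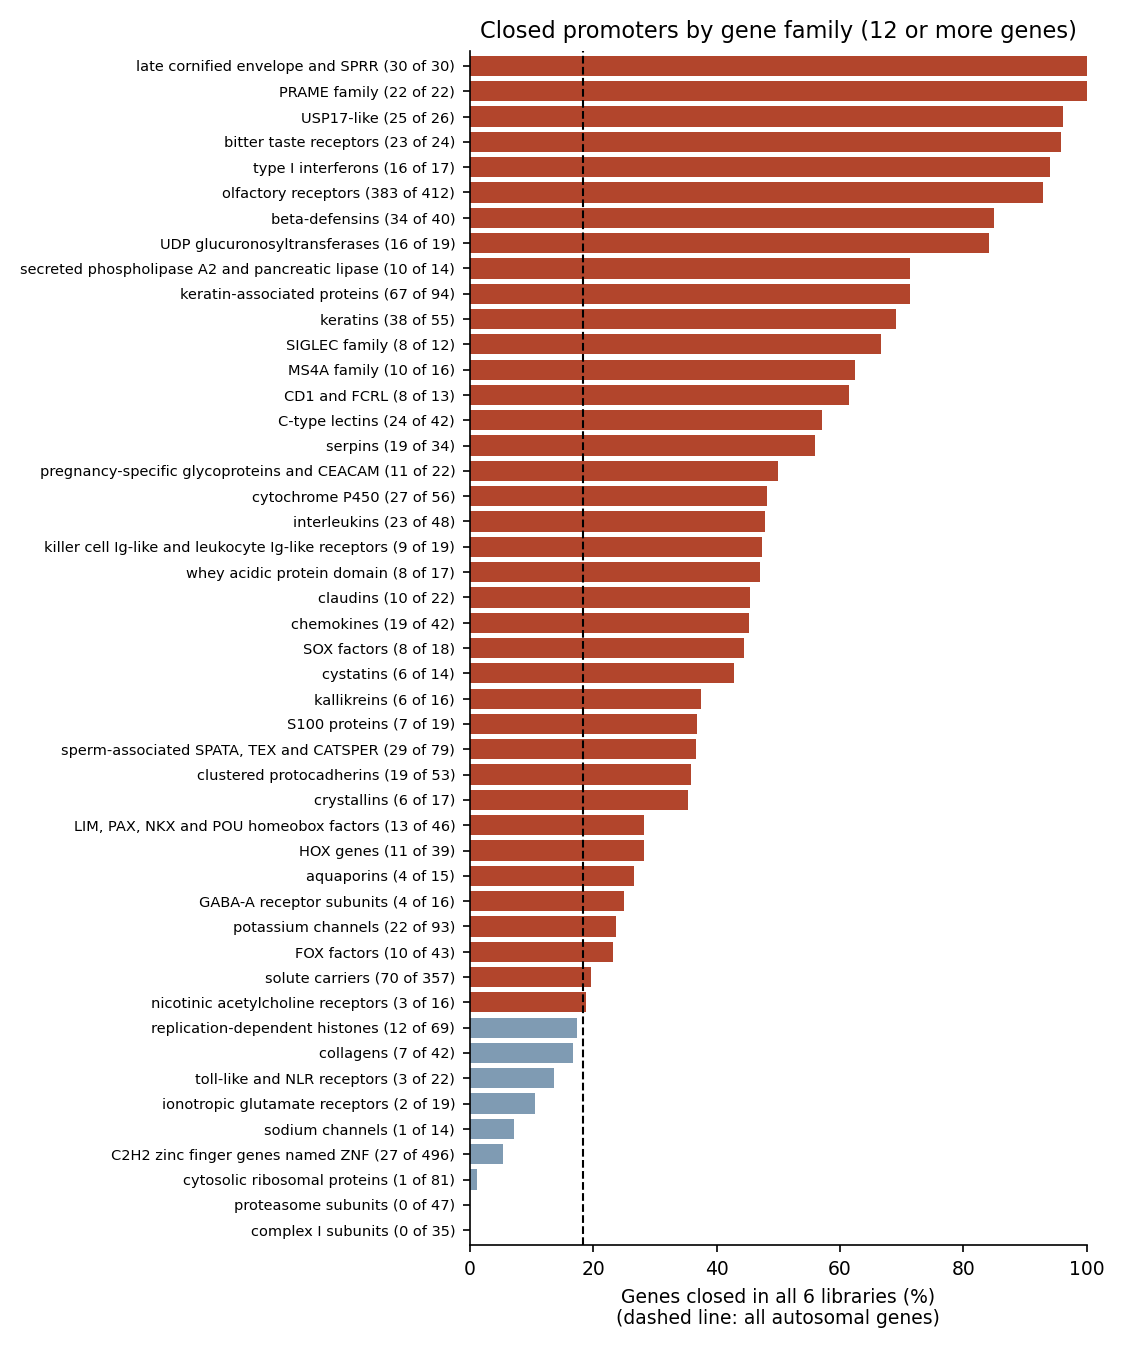
Percent of the autosomal genes of each family that were closed in all 6 libraries (x axis), with the number closed and the number annotated after each name (y axis), for the 47 families of 12 or more genes. The dashed line is the 18.3% of all autosomal protein-coding genes, red bars lie above it and blue bars at or below it, from 30 of 30 late cornified envelope and SPRR genes to 0 of 47 proteasome subunits.

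The 54 families together held 1141 of the closed genes, or 32.6%, so the other closed genes lay outside these families. Some of the highest shares belong to genes with near-identical copies, whose promoters share sequence with other places in the genome. At 22.3% of closed promoters, more than 10% of the 50-base words within 1 kb of the canonical start occurred elsewhere in the genome, against 8.73% of all promoters. At 392 closed promoters that share passed 50%, as it did at 89 promoters open in all 6 libraries and 67 open in 1 to 5. The median share was 71.2% in the PRAME family (22 of 22 closed), 96.7% in the USP17-like genes (25 of 26 closed), 0.765% in olfactory receptors and 0% in bitter taste receptors. Among the genes at or under 10%, 310 of 333 olfactory receptors and 25 of 25 late cornified envelope and SPRR genes were still closed. The part of repeated sequence in the other calls was not tested.

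Closed promoters were poor in CpG. Within 500 bp of the canonical start their median ratio of observed to expected CpG was 0.247, with 13 CpG and 48.7% GC, against 0.785, 77 CpG and 63.6% GC at promoters open in all 6 libraries. CpG-rich promoters, taken as a ratio of at least 0.6 with at least 50% GC, made up 16.3% of closed promoters (572, exact 95% binomial interval 15.1% to 17.6%, counting error only), 44.4% of promoters open in 1 to 5 libraries and 84.6% of those open in all 6. Over all genes 65.5% were CpG-rich. Turned around, 4.57% of CpG-rich promoters and 44.4% of the others were closed. The closed share fell with each step of the ratio from 74.9% of the 367 genes below 0.1 to 3.42% of the 4176 between 0.8 and 0.9, and was 3.43% of the 2363 genes at 0.9 or more.

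**Figure D2:**
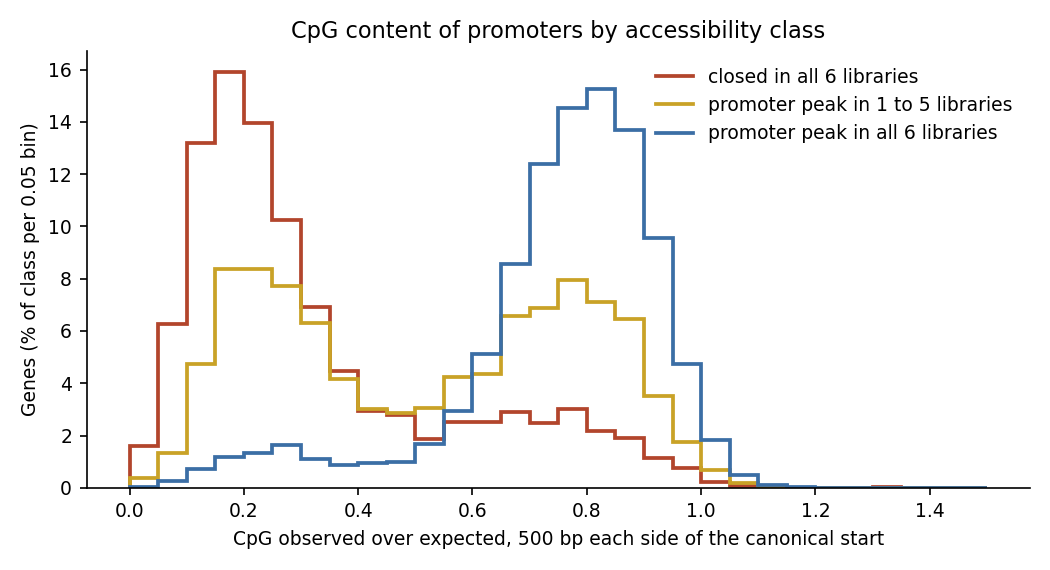
Histogram of the ratio of observed to expected CpG within 500 bp of the canonical start (x axis), as percent of the genes of each accessibility class per bin of 0.05 (y axis). Closed promoters (red) peak near 0.2 with a median of 0.247, promoters open in all 6 libraries (blue) have a median of 0.785, and those open in 1 to 5 libraries (yellow) have both peaks.

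Short promoter motifs were counted from 250 bases before to 50 after the canonical start on both strands. TATAAA (the TATA box, bound by TBP) was present at 24.4% of closed promoters, 5.15% of promoters open in all 6 libraries and 9.74% of all promoters. Among promoters that were not CpG-rich the shares were 27.2% for closed and 11.7% for open in all 6. GGGCGG, the GC box bound by SP factors, stood in 23.9% of closed promoters and 61.7% of all promoters. Among CpG-rich promoters the shares were 76.2% for closed and 80.6% for all, and among the others 13.7% and 25.8%. CCAAT, the motif of NF-Y, was held by 36.9% of closed promoters, 37.0% of promoters open in all 6 libraries and 35.7% of all promoters. TGACGTCA, the cyclic AMP response element, was found in 0.771% of closed and 2.72% of all promoters. A match is a description of the letters only.

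Closed members of developmental transcription factor families were mostly CpG-rich: 8 of 10 closed FOX genes, 7 of 8 closed SOX genes, 9 of 11 closed HOX genes and 8 of 13 closed LIM, PAX, NKX and POU homeobox genes. Closed were 10 of 43 FOX (23.3%), 8 of 18 SOX (44.4%), 11 of 39 HOX (28.2%) and 13 of 46 such homeobox genes (28.3%). Of all genes 18.3% were closed. The whole families had median CpG ratios of 0.812, 0.765, 0.777 and 0.707 in that order, so high ratios were not particular to closed members. In olfactory receptors, by contrast, 1 closed promoter of 383 was CpG-rich. The closed HOX genes, which set position along the body axis, included HOXA9, HOXA11, HOXB1, HOXD9 and HOXD12, while 16 of 39 HOX genes were open in all 6 libraries. Closed SOX genes included SOX1, SOX8, SOX10, SOX11 and SOX18. Of the 12 closed replication-dependent histone genes 7 were CpG-rich, and 4 had over 10% repeated words.

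The highest CpG ratios at closed promoters with at least 55% GC were led by GOLGA8A at 1.33, a golgin gene with 15.3% repeated words. NKX6-2, a homeobox factor of oligodendrocytes, followed at 1.11 with 159 CpG and no repeated words. KCNA7, a voltage-gated potassium channel gene, had a ratio of 1.10. RGPD5 (1.09) and RGPD2 (1.08) belong to a recently duplicated family related to RANBP2, with 96.4% and 60.7% repeated words. HENMT1, which methylates piRNAs in germ cells, had 1.06, FOXI3 1.02, SOWAHA 1.02, CNTFR (a receptor subunit for ciliary neurotrophic factor) 1.02 and HOXA9 1.02. KCNA7, CNTFR and HOXA9 had a region 1238 to 1485 bp from a start, so they were not closed with 2 kb each side. The CpG-rich closed genes lay nearer to other open chromatin, at a median distance of 3.59 kb from a start to the nearest region of any library, against 6.59 kb for the other closed genes.

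Across all closed genes that distance had a median of 5.98 kb; it is held above 1 kb by the rule. It was 1 to 2 kb for 657 genes (18.8%), 2 to 5 kb for 933, 5 to 10 kb for 603, 10 to 50 kb for 987, 50 to 100 kb for 220 and over 100 kb for 104. In single libraries the median was 8.57 to 11.9 kb in the 5 deeper libraries and 22.7 kb in SNDX-5613 replicate 3. The genes just inside the rule were MYL3, PDCD1, KCNK13, TNN and HAO2, with the nearest region 1001 to 1004 bp from a start. Just outside it were KLK5, CD93, SAP25, INSYN1 and LSMEM2, each with a promoter region in 1 library at a −log10 q of at most 1.31, near the calling limit. The farthest gene was OR4C46 on chromosome 11, at 671 kb, named after its value was seen.

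The closed genes stood alone in the gene order or in blocks. With genes ordered by first base along each chromosome, the closed genes fell into 2028 runs of consecutive closed promoters, of which 1475 were 1 gene long. The 107 runs of 5 or more genes held 947 genes, 27% of the closed genes. Olfactory receptors were the majority in 34 of these 107 runs with 344 genes, keratins in 5, keratin-associated proteins in 3, and no family reached a majority in 43.

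The longest run lay on chromosome 8, from DEFB1 to FAM90A12P, with 50 genes over 1161 kb. It holds the defensin clusters and copies of the FAM90A and USP17-like genes, and 46 of the 50 had more than 10% repeated words. The second, on chromosome 11 from OR4C13 to OR5T1, held 38 genes, nearly all olfactory receptors, over 6324 kb, crossed the centromere and had 13 sites of open chromatin in all, a site being the merged regions of the 6 libraries. The third was the epidermal differentiation cluster of chromosome 1 from LCE3E to LORICRIN, with 36 genes over 696 kb and a stretch of 353 kb free of any site. The fourth, on chromosome 21 from CLDN17 to KRTAP19-8, held 35 genes over 873 kb, and the fifth, on chromosome 1 from PRAMEF12 to PRAMEF20, held 26 genes, 25 of them with more than 10% repeated words. Sites of open chromatin numbered 27.6 per Mb in the defensin run, 2.06 per Mb in the olfactory run, 8.61 per Mb in the epidermal run, 11.5 per Mb in the keratin-associated run and 27.8 per Mb in the PRAME run, against 56.4 per Mb over all autosomes. The olfactory run includes a site-free stretch of 4976 kb over the centromere, outside which it had 9.64 sites per Mb. All 5 densities follow in part from the rule, which emptied the promoters.

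**Figure D3:**
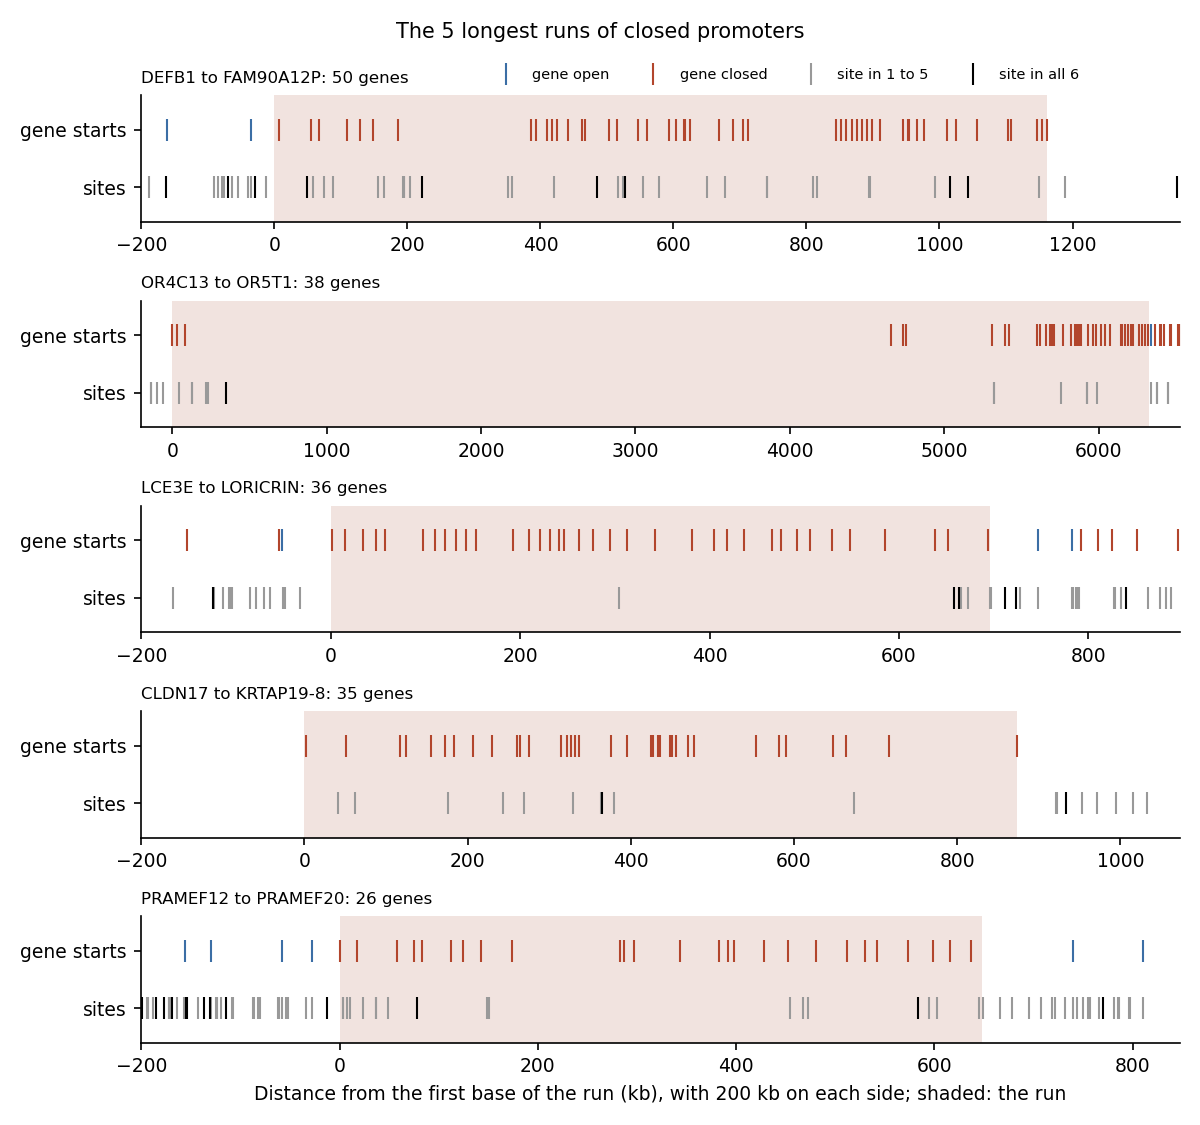
The 5 longest runs of neighbouring closed promoters, 1 panel each, with distance from the first base of the run in kb (x axis) and 200 kb on either side. The upper ticks are canonical gene starts, closed in red and open in blue, the lower ticks are sites of open chromatin, black where present in all 6 libraries and grey in 1 to 5, and the shaded run of 36 genes from LCE3E to LORICRIN holds 6 sites.

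By chromosome the closed share ran from 13.5% on chromosome 18 to 28.2% on chromosome 21 (62 of 220 genes), with 26.7% on chromosome 11 and 23.1% on chromosome 8. Without olfactory receptors chromosome 11 came to 16.1%, while chromosome 21, home of a keratin-associated cluster, stayed at 28.2%.

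On the short arm of chromosome 9 closed and open promoters were mixed. Of 35 genes around the interferon cluster 18 were closed, 15 were open in all 6 libraries and 2 in 5. IFNB1 (interferon beta) and all 13 IFNA genes were closed, with the nearest region between 3083 bp (IFNA2) and 14181 bp (IFNA6) from a start, while KLHL9, a ubiquitin ligase adaptor gene lying inside the cluster, was open in all 6. MTAP, CDKN2A and CDKN2B, the genes next to the cluster and often lost in tumours, were open in all 6 libraries. TEK, the angiopoietin receptor of endothelium, was closed with the nearest region 15618 bp away.

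Peaks inside the gene bodies were looked at next, in the part of each gene beyond 1 kb of all its own starts. 3173 closed genes had such a body and the other 331 lay wholly within 1 kb of their starts. In 1452 closed genes, 41.4% of all 3504, a peak summit fell in the body in at least 1 library, against 65.1% of all genes and 70.0% of genes open in all 6. The exact 95% binomial interval of 39.8% to 43.1% covers counting error only, as if genes were independent. Overlapping genes can share a site. 572 closed genes had a body peak in each of the 6 libraries. The per-library number came to 993, 1161 and 1057 for DMSO, and to 1204, 1159 and 638 for SNDX-5613, the last being the shallow replicate 3.

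Closed genes were shorter, with a median length of 9.96 kb against 35.9 kb for genes open in all 6 libraries, so the shares were set side by side within length classes. Below 5 kb 9.39% of closed genes and 9.95% of open genes had a body peak, or 13% and 11.7% of those with any body beyond their promoter windows. Between 5 and 20 kb the shares were 43% and 44.8%, between 20 and 100 kb 67.8% and 80.7%, and above 100 kb 88.5% (231 of 261) and 98.1%. The gap between closed and fully open genes was thus widest in the genes over 20 kb. From the shortest class to the longest, 22.2%, 63.3%, 87.8% and 96.3% of genes open in 1 to 5 libraries had a body peak. Closed genes lay below these in every class, with the smallest gap above 100 kb.

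**Figure D4:**
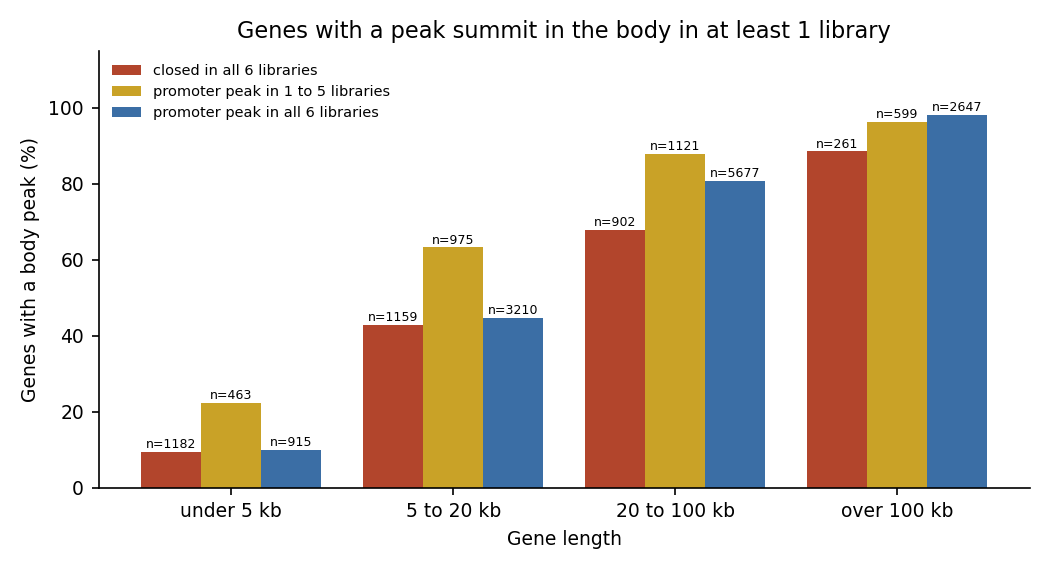
Percent of all genes of a class, with or without a body beyond the promoter windows, that had a body peak in at least 1 library (y axis) by gene length (x axis) and accessibility class of the promoter, with the number of genes on each bar. Closed and fully open genes stand at 9.39% and 9.95% below 5 kb and at 88.5% and 98.1% above 100 kb.

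The bodies lie outside the windows that chose the genes, although the libraries are the same. Per Mb of body, closed genes held fewer summits than open ones in every library. In the DMSO libraries closed genes had 21, 28.3 and 23.7 summits per Mb, and genes open in all 6 had 32.7, 43.7 and 36.5. In the SNDX-5613 libraries the closed genes had 28.6, 25.7 and 9.36, and the open genes 37.0, 32.6 and 11.3. Closed genes thus lay lower in 6 of 6 libraries, at 0.642 to 0.827 of the density of open genes. The mean log2 ratio was −0.48 ± 0.17 (SD, n = 6), which an exact two-sided sign-flip permutation test gave p = 0.031, the smallest it can give with 6 libraries, and 0.0375 after Benjamini-Hochberg adjustment over 6 density comparisons. Without SNDX-5613 replicate 3, with the genes chosen again from the other 5, the mean was −0.53 and the exact permutation p was 0.062, the smallest with 5 libraries. By length class the mean log2 ratio was −0.06 below 5 kb (lower in 4 of 6 libraries, exact permutation p = 0.59375), −0.23 at 5 to 20 kb, −0.38 at 20 to 100 kb and −0.99 above 100 kb (each lower in 6 of 6 libraries, exact permutation p = 0.031, adjusted 0.0375). Against genes open in 1 to 5 libraries the deficit was smaller, with a mean log2 ratio of −0.20 ± 0.11 (SD, n = 6). Closed genes lay at 0.814 to 0.996 of that density, lower in 6 of 6 libraries (exact permutation p = 0.031, adjusted 0.0375). In SNDX-5613 replicate 3 the densities were nearly equal, at 9.36 and 9.40 per Mb. By the study's methods 1 dish was divided between the treatments, so the 6 libraries may not be independent. An exact sign-flip permutation test of 3 pairs cannot give a p below 0.25.

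The drug question was put to the same bodies. The share of all autosomal regions of a library that lay in closed-gene bodies was 2.41%, 2.54% and 2.50% in DMSO and 2.70%, 2.70% and 2.29% in SNDX-5613. The group means were 2.48 ± 0.0651% and 2.57 ± 0.237% (SD, n = 3 each), a difference of 0.0836 percentage points that was smaller than the spread between libraries (exact two-sided permutation p = 0.6, adjusted 0.9 over 4 comparisons, with 0.1 the smallest possible for 3 against 3). Both deeper SNDX-5613 libraries lay above every DMSO library and the shallow one lay below. With SNDX-5613 replicate 3 left out the difference was 0.227 points, at the smallest exact permutation p of 0.1 for 3 against 2. With every library cut to its strongest 40568 regions it was 0.315 points (exact permutation p = 0.1).

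The ratio of body density in closed genes to that in fully open genes did not overlap between the groups. It was 0.642, 0.648 and 0.650 in DMSO and 0.773, 0.787 and 0.827 in SNDX-5613, so the shallow library lay with its group. The group means were 0.646 ± 0.0041 and 0.796 ± 0.0281 (SD, n = 3 each), and with 3 against 3 libraries the exact two-sided permutation p was 0.1, its smallest value, or 0.4 after adjustment over the 4 comparisons, so it did not pass the threshold of 0.05. This ratio was chosen after the data were seen. In the 2 deeper SNDX-5613 libraries closed-gene density was 28.6 and 25.7 per Mb beside a DMSO range of 21 to 28.3, and open-gene density was 37.0 and 32.6 beside a DMSO range of 32.7 to 43.7. Genes open in 1 to 5 libraries had 24.3, 32.9 and 27.1 summits per Mb in DMSO and 35.1, 31.6 and 9.40 in SNDX-5613. In proportion their density too lay nearer to that of fully open genes in each SNDX-5613 library. The shift was thus not particular to closed genes. Per the study's methods a replicate was 1 dish of cells divided between treated and untreated, so p-values measure the spread between dishes of 1 line. With same-numbered libraries taken as such pairs, the exact permutation p was 0.75 for the share of regions and 0.25, the smallest for 3 pairs, for the ratio.

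**Figure D5:**
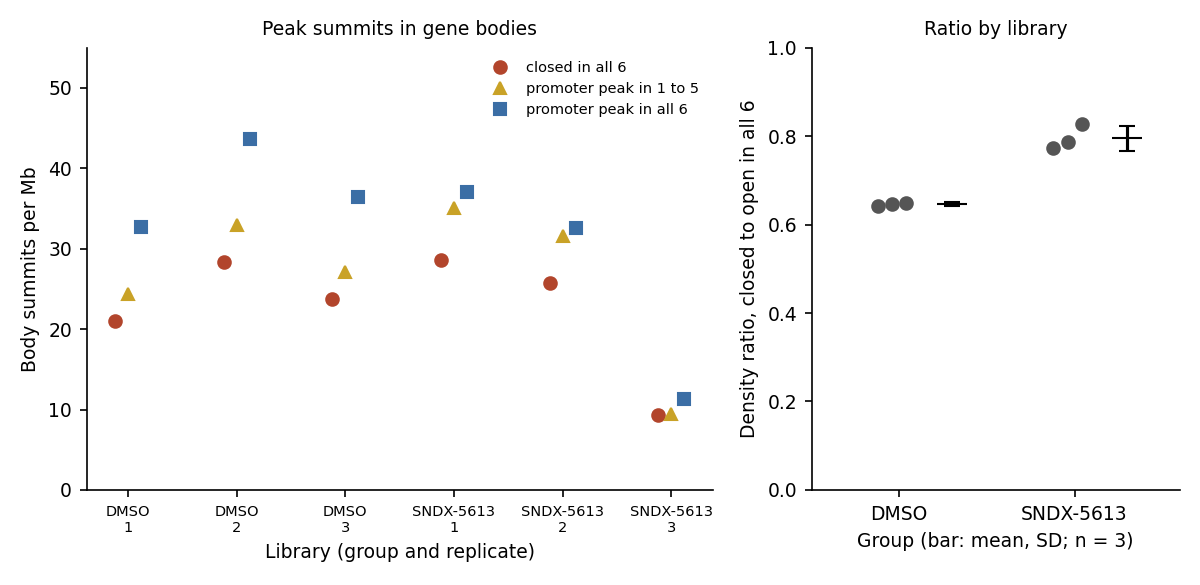
Left, peak summits per Mb of gene body (y axis) in each library (x axis) for genes with closed promoters (red circles), promoters open in 1 to 5 libraries (yellow triangles) and promoters open in all 6 (blue squares). Right, the ratio of closed to fully open genes per library (points) with the group mean and SD (bars, n = 3), 0.642 to 0.650 in DMSO and 0.773 to 0.827 in SNDX-5613.

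The bodies of closed genes held 4472 sites, of which 3424 (76.6%) were intronic, 652 lay in exons and 396 (8.86%) lay within 1 kb of the start of another gene, and 761 sites lay inside another gene whose own promoter was open. 715 sites (16%) were present in all 6 libraries. Sites present in both deeper SNDX-5613 libraries and in none of the 3 DMSO libraries numbered 131, or 2.93%, against 2.37% of all autosomal sites and 1.35% of sites in the bodies of open genes. Sites present in 3 DMSO libraries and in neither deeper SNDX-5613 library numbered 38, or 0.850%, against 1.22% and 1.79%. With all 3 SNDX-5613 libraries counted, the shallow one included, the order turned around: 9 sites (0.201%) were in SNDX-5613 alone, against 0.144% of all autosomal sites, and 38 (0.850%) in DMSO alone, against 1.19%. No test was made on these shares, and a count from 2 libraries and one from 3 are not equal hurdles.

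Motifs under the body summits were counted within 100 bases of the summit, on both strands and away from gene starts. TGAGTCA (AP-1) was present at 11.1% of closed-gene body sites, 14.4% of open-gene body sites and 13.2% of all such autosomal sites. CATTCC (TEAD) was present at 16.5%, 17.1% and 16.7%, and CCAAT at 24.7%, 22.7% and 24.0%. A core of the motif of the insulator protein CTCF was present at 9.57%, 6.95% and 7.46%.

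The strongest body sites came from a short list of genes. Sites were ranked within each library by −log10 p, with 100 as the strongest, and a gene was placed by the lowest rank of its best site over the 6 libraries. CCDC200 came first with the top region of every library in an intron 23.1 kb from its canonical start, but 99.0% of the words at its promoter were repeated elsewhere, as were 97.4% at GRAP, the next named gene away from other starts. Starts of other genes were checked for protein-coding and long noncoding RNA genes only. Of the 10 strongest, 7 sat within 1 kb of the start of another gene, all in genes known by identifier or in P3R3URF-PIK3R3, a readthrough gene. Leaving those sites out, PKD1L1, a gene for a ciliary channel-like protein, followed with a lowest rank of 99.0 and a promoter with 12.8% repeated words. GRAP and PKD1L1 had a region 1060 and 1527 bp from a start, so they were not closed with 2 kb each side. PDE6A (the rod photoreceptor phosphodiesterase), EMILIN1 (an elastic fibre protein), VSTM2B and C17orf50 had lowest ranks of 89.8, 88.7, 88.1 and 93.3, and each had under 10% repeated words at its promoter. NCF1, GOLGA6L10 and ENSG00000289768 made up the 10. The bases within 50 bp of the summits of PKD1L1 and PDE6A, both intronic, are shown on the plus strand of hg38, with CCAAT in capitals in the first and the CTCF match in the second.
PKD1L1 summit, chr7:47786760-47786860: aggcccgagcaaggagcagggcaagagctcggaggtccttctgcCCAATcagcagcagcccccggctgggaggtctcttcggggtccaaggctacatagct
PDE6A summit, chr5:149932869-149932969: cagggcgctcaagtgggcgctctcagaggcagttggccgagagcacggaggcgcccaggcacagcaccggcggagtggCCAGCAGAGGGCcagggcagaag

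The closed genes with the most body sites and with the longest empty bodies were both long. KIF26B, a kinesin-related gene with a CpG ratio of 0.872 at its closed canonical start, had 49 sites in its body, with 9, 12 and 14 summits in DMSO and 27, 29 and 5 in SNDX-5613. Both deeper SNDX-5613 libraries were above every DMSO library, and the shallow one was below. PKD1L1 had 38 sites, ATP2B2 (a plasma membrane calcium pump) 36, ANO1 (a calcium-activated chloride channel) 29 and the gene ENSG00000285218 28. KIF26B, PKD1L1, ATP2B2 and ANO1 had a region 1163 to 1681 bp from a start, so they were not closed with 2 kb each side. ENSG00000285218 stayed closed with 2 kb. ATP2B2 had 13, 19 and 13 summits in DMSO and 24, 21 and 3 in SNDX-5613, and ANO1 had 8, 12 and 6 against 12, 13 and 5. At the other end CNTN3, a neuronal adhesion gene, had 349 kb of body without a site in any library despite a CpG ratio of 0.951 at its start, and its nearest region lay 97392 bp from a start. RIT2, a neuronal small GTPase gene, had 369 kb, MMP26 285 kb, ENSG00000275163 423 kb and CNTNAP3, with 82.7% repeated words at its promoter, 208 kb without a site.

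Hepatocyte genes with closed promoters differed in their bodies. HNF4A had 15 body sites, with 9, 11 and 8 summits in DMSO and 10, 8 and 1 in SNDX-5613. 1 of the 15 sites was present in all 6 libraries. AHSG (fetuin-A) had 2 sites, both present in all 6 libraries, and ARG1 had 3 sites with 2, 2 and 2 summits in DMSO and 3, 2 and 0 in SNDX-5613. FGB had 1 site, seen in the 3 DMSO libraries and in no SNDX-5613 library. The APOA1 site, in all 6 libraries, lay at the start of another gene. ALB, TAT (tyrosine aminotransferase), HP (haptoglobin), APOA2, APOC3 and CYP3A4 had no peak in the body in any library.

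Short families left little body to test. Body peaks were present in 31 of 383 closed olfactory receptors and in none of the closed keratin-associated, late cornified envelope and SPRR, alpha-defensin or type I interferon genes. They were present in 16 of 19 closed clustered protocadherin genes and 10 of 16 closed glucuronosyltransferase genes. In part of each family, such as the PCDHG and UGT1A genes, variable first exons share downstream exons. There 1 site can count for several genes. All 7 closed collagen genes and 18 of 22 closed potassium channel genes had a body peak. Of all closed genes 41.4% had one, or 67.8% at 20 to 100 kb and 88.5% above 100 kb. The families were not matched for gene length.

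Genes closed in 1 treatment group were counted among all 19111 genes from the same calls, without a test. 601 genes had no promoter region in any DMSO library but had one in at least 1 SNDX-5613 library, and 395 had none in any SNDX-5613 library but at least 1 in DMSO. 175 genes had a promoter region in both deeper SNDX-5613 libraries and in no DMSO library, while 24 had one in all 3 DMSO libraries and in neither deeper SNDX-5613 library. Over all 3 libraries of each group these counts were 20 genes with a region in SNDX-5613 alone and 21 with one in DMSO alone, so the imbalance rests on leaving out the shallow library. The hurdle was also unequal there, with 2 SNDX-5613 libraries beside 3 of DMSO. Of all 162030 autosomal sites, the patterns without the shallow library held 3843 (2.37%) and 1976 (1.22%). With all 3 libraries of each group they held 233 (0.144%) and 1926 (1.19%). Promoters without a region numbered 4539 to 5045 in the DMSO libraries, 4323 and 4406 in the deeper SNDX-5613 libraries and 6469 in the shallow one. With that shallow library left out, 3528 promoters were closed in the other 5, so it set 24 of the calls.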

How the data were processed

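ATAC-seq of HLF cells was made by the Omni-ATAC protocol with 3 DMSO and 3 SNDX-5613 libraries. Per the labels, the authors trimmed reads with Trim Galore 0.6.7, aligned them to hg38 with Bowtie2 2.3.4.1, marked duplicates with Picard 2.20.0 and called peaks with MACS2; the study's methods give summit calling at a q of 0.05 for CUT&RUN and call the ATAC-seq pipeline similar. The MAPQ filter, the Tn5 shift and any blacklist are not given in the sources used here. The deposited region lists of each library hold a fold enrichment (ratio over local background), −log10 p and −log10 q values and a score (the score was not used), and every region had a −log10 q above 1.30. The authors' 2 consensus sets hold regions with a combined −log10 p and were used as an alternative. No read counts were used, so depth is known only as regions per library, and no region passed a chromosome end of hg38.

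Here, regions were joined to GENCODE release 44 and to the hg38 sequence with Python 3.11.15, numpy 2.4.6, pandas 2.3.3 and scipy 1.17.1. Transcript starts and exons were those of protein-coding and long noncoding RNA genes, so those of other gene kinds were not checked. A promoter region touched the 2 kb window (1 kb each side) of any transcript start by at least 1 bp. A body peak was a region whose strongest summit lay in the gene beyond 1 kb of its own starts. Uniqueness was the percent of 50-base words, taken at every 10th position, seen more than once in the genome. Tests were exact permutation tests over libraries. The state and permutation code was tested on simulated regions and values.

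The genes, families and lists were chosen with earlier results of these data known. Families were read from gene symbols. Genes were named by rules: examples at fixed places of the alphabetical list or textbook members of a list, the exceptions of a family where at most 3, the 5 longest runs, the 10 strongest body sites, the 5 longest empty and 5 fullest bodies, the 10 highest CpG ratios, all broadly expressed and 9p21 genes, and the 5 genes on each side of the rule. Same-numbered DMSO and SNDX-5613 libraries did not deviate together in the ranks of sites present in all 6 (correlations of 5.9e-05 to 0.0313), so the tests were run without pairs; since a replicate was 1 dish divided between the treatments, numbers may still mark pairs, and the paired p-values are given beside the drug comparisons.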

Additional observations from a re-analysis of the deposited data

Results flagged for a closer look

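31 closed promoters held a region of the authors' consensus sets although no library's own list had a region there. The DMSO set accounted for 10 of them and the SNDX-5613 set for 25. Of the 24 regions concerned in the latter, 13 overlapped a library region that lay outside the promoter window. The 31 include MYL3 and KCNK13, given above as just inside the rule, VSTM2B, given for its body site, and MYOG of the muscle list. The consensus sets were not used for any comparison above, which is why this signal is listed here, and its source was not tested.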

How the results depend on the processing

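The number of closed promoters rose to 5687 when each library was cut to its strongest 40568 regions, and stayed within 1.5 times the reported count under windows of 500 bp (4027) and 2 kb (2847), the canonical start alone (4672), −log10 q of at least 3 (4043), the consensus sets (4504) and any 5 libraries (3528 to 3709). The share of closed genes with a body peak was 47.3% with the 500 bp window, 33.6% with 2 kb, 50.5% with the canonical start, 32.1% with equal region numbers, 35.0% when 2 libraries had to hold the peak, 38.9% without the starts of other genes and 46.3% without repeated promoters, the last added after seeing the data. Closed genes in runs of 5 or more fell to 569 when genes with over 10% repeated words were left out, also added later. The density deficit of closed genes kept its direction in every alternative run, with mean log2 ratios of −0.56 to −0.42 when 1 library was left out, where the exact permutation p cannot go below 0.062. The SNDX-5613 difference in the share of regions was −317 regions instead of a gain when raw numbers were compared (exact permutation p = 0.9), and 0.0226 to 0.227 percentage points when 1 library was left out. The fit with same-numbered libraries as a replicate block gave a difference of 0.0836 points with exact permutation p = 0.75. For the density ratio the block gave 0.149 with exact permutation p = 0.25, and every SNDX-5613 library stayed above every DMSO library in all 13 settings without the block, with differences of 0.102 to 0.160 and the smallest exact p of 0.1 in each. Closed promoters with over 50% repeated words were 9.42% with words of 100 bases instead of 11.2%. Of 73 closed genes checked singly, 52 were closed under the 2 kb window and all 73 under every other alternative that was run for them. SNDX-5613 replicate 3 had the fewest regions and limits what its list can show as open.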

Other observations

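The X chromosome lay outside the rule. There, 289 of 859 protein-coding genes, 33.6%, had no promoter region within 1 kb of any start in any of the 6 libraries, against 18.3% of autosomal genes; the part of copy number and depth in this was not tested. Of the autosomal genes named only by an identifier, 174 of 584 (29.8%) were closed, and of genes tagged as readthrough transcripts 171 of 638 (26.8%) were closed. Among symbol stems with at least 10 genes, SPDYE genes were closed in 18 of 19 cases, PCDHGA genes in 11 of 12, NPIPB genes in 9 of 12, TNFSF ligands in 9 of 12 and CCR chemokine receptors in 7 of 10, groups chosen after their values were seen.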
